A study of Saccharomyces cerevisiae with 14 samples.

Results

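Sef1 binding was examined at 10 genes of the glyoxylate cycle and gluconeogenesis in Saccharomyces cerevisiae, out of 6008 protein-coding genes: MLS1, ICL1, ICL2, MDH2, IDP2, SFC1, PCK1, FBP1, ACS1 and JEN1. A peak was counted for a gene when its position lay between 2000 bp upstream and 200 bp downstream of the ATG, and overlapping peak intervals were joined into sites. The 10 genes held 58 of the 3812 deposited peaks, which formed 11 of the 1066 sites. Chromatin immunoprecipitation sequencing (ChIP-seq) had been performed on 4 biological replicates grown in YPD, a rich medium with glucose, and on 3 grown in YPGly, the same kind of medium with glycerol. Every culture was of 1 strain, a MATa derivative of W303 whose chromosomal SEF1 carries a TAP tag (SEF1-TAP::FRT), with the marker alleles ade2-1, ura3-1, trp1-1, his3-11,15 and can1-100 and a mutant leu2 allele. Cells spent 4.5 h at 30°C in the medium and were fixed near a density of 1 OD600 per ml in YPD and of 0.4 in YPGly, and 1500 OD600 units of cells were used per YPD replicate against 500 per YPGly replicate. Per the paper, each YPD replicate was split into 3 immunoprecipitations of 500 OD600 units, and their DNA was pooled. Medium, density, total amount of cells and this pooling cannot be told apart, and an untagged strain was not analysed here.

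The glyoxylate cycle lets yeast build C4 acids from acetyl units by bypassing the decarboxylating steps of the TCA cycle, and gluconeogenesis turns those acids into hexose phosphates. Icl1 (isocitrate lyase) and Mls1 (malate synthase) carry out the steps particular to the cycle, Mdh2 is the cytosolic malate dehydrogenase, and Pck1 (phosphoenolpyruvate carboxykinase) and Fbp1 (fructose-1,6-bisphosphatase) catalyse the steps that glycolysis cannot run in reverse. Acs1 activates acetate, Jen1 imports lactate and pyruvate, Sfc1 exchanges succinate and fumarate across the inner mitochondrial membrane, Idp2 is the cytosolic NADP-dependent isocitrate dehydrogenase, and Icl2 is the mitochondrial 2-methylisocitrate lyase. Most of these genes are known to be repressed in glucose and to be activated through the carbon source-responsive element (CSRE), which the zinc cluster proteins Cat8 and Sip4 bind. Sef1 belongs to the same family of zinc cluster proteins, whose members contact CGG triplets.

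In YPGly, 9 of the 10 genes had a site called in all 3 replicates, beside 8.41% of all genes, and in YPD 6 of the 10 had a site called in at least 3 of the 4, beside 12.3% of all genes. A site kept in at least 1 medium stood upstream of 14.6% of all genes. SFC1, PCK1 and JEN1 had a site by that rule in YPGly and none in YPD. MLS1, ICL2, MDH2, IDP2, FBP1 and ICL1 had one in both media, but for FBP1 and ICL1 the YPD peaks lay on tRNA genes. ACS1 had no peak in any of the 7 lists. Sites at MLS1, ICL1, ICL2, MDH2 and IDP2 were known from these data when the genes were chosen. The counts of genes with a site were thus partly set by the choice, and their excess over all genes was not tested.

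The CCGN5CGG pattern, with CCG and CGG 5 bases apart, is the spacing that the study names for Sef1, and it is its own reverse complement. An exact match lay within 250 bp centred on the site at MLS1, ICL2, IDP2 and the proximal JEN1 site, which is 4 of the 11 sites beside 9.46% of the 645 sites kept in at least 1 medium. The stretches are shown because the peaks of these 4 genes are described against them, each on the strand of its gene in build R64, with the pattern in capitals. At MLS1, where both kinds of element occur, the capitals mark from left to right 2 CSRE matches and then 2 CCGN5CGG matches.
MLS1, chrXIV:405815-405950, plus strand: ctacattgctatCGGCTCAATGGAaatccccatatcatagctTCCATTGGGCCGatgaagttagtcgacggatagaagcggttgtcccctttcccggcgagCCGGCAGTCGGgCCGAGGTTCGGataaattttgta
ICL2, chrXVI:569243-569277, minus strand: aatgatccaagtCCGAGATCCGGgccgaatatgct
IDP2, chrXII:504284-504318, plus strand: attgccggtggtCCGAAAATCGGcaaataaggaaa
JEN1 proximal, chrXI:21637-21671, plus strand: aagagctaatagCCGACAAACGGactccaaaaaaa

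The CSRE consensus matched on either strand at 4 of the 11 sites, at MLS1, MDH2, PCK1 and the proximal ICL1 site, beside 1.09% of the 645 kept sites, and at those 4 sites all 3 YPGly replicates had a call, beside 51.6% of the kept sites. The PCK1 and proximal ICL1 sites were kept through their YPGly calls alone, so the filter fixed that outcome for them. MDH2 held 3 matches, MLS1 held 2, and PCK1 and ICL1 held 1 each. These stretches are shown because the YPGly peaks of the 3 genes below had no CCGN5CGG within the same 250 bp. The CSRE matches are in capitals.
MDH2, chrXV:83275-83365, minus strand: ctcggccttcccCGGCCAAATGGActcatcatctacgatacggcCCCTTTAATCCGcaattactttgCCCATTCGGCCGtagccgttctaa
ICL1 proximal, chrV:287290-287325, minus strand: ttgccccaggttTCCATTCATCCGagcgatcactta
PCK1, chrXI:630658-630693, plus strand: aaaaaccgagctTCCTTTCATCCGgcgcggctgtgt

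SFC1 and FBP1 held no exact match to either element within 250 bp, nor did the distal ICL1 and JEN1 sites. Looser matches to the CSRE with mismatches were not searched, so a variant of it may be present. SFC1 and FBP1 each had 3 matches to CCN6CCG, a part of the CSRE with CC and CCG 6 bases apart, which is a loose pattern and occurred on either strand in 9 of the 11 sites beside 29.3% of the kept sites. Every CSRE match contains it, and it can overlap CCGN5CGG. Its matches are in capitals, and at both sites they are read on the strand opposite to the gene. At FBP1 the last 2 matches overlap and share 1 run of capitals.
SFC1, chrX:609082-609215, plus strand: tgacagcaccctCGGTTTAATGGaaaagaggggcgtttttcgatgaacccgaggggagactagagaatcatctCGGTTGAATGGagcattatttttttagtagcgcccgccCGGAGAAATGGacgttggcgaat
FBP1, chrXII:875202-875308, minus strand: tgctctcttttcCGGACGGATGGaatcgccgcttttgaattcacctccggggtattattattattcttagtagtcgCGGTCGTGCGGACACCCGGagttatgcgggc

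Malate synthase, MLS1 (YNL117W, chromosome XIV, plus strand, coding sequence 406358 to 408022), had the strongest site of these genes in YPGly and the largest medium difference among the sites called in every list. The site (chrXIV:405753-406028) was intergenic, centred 467 bp upstream of the MLS1 ATG and 327 bp upstream of the divergent DCP2, which encodes an mRNA decapping enzyme. Enrichment, the authors' maximum-likelihood estimate of the ratio of ChIP over input, was 2.41, 2.27, 2.10 and 2.81 in the YPD replicates and 75.0, 60.9 and 75.0 in the YPGly replicates. The groups did not come near each other, with means of 2.40 ± 0.30 (SD, n = 4) and 70.3 ± 8.13 (SD, n = 3), a ratio of 29.3. By mean enrichment the site stood at place 12 among the 333 sites called in YPGly and at place 141 among the 537 called in YPD.

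Single sites were compared by limma on log2 enrichment at the 203 sites called in all 7 lists, with every list centred on its median over those sites and Benjamini-Hochberg adjustment over all 203. MLS1 was higher in YPGly by 4.17 on the log2 scale (SE 0.10, 95% interval 3.97 to 4.38, adjusted p = 1.64e-18), which was the largest difference among the 203 sites. The next 4 sites toward YPGly were those upstream of YGR067C (2.92), of ALD6, the cytosolic aldehyde dehydrogenase, and YPL062W (2.89), of LPX1, TGL5 and OST3 (2.61), and of RPM2 and UFO1 (2.14).

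**Figure D1:**
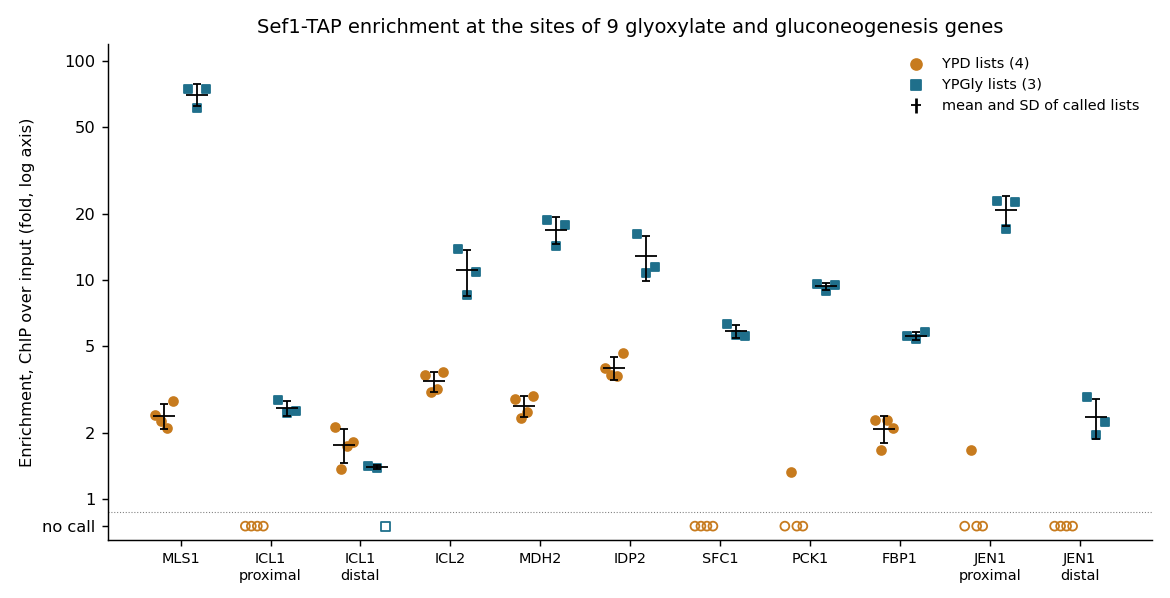
Enrichment of ChIP over input at each of the 11 sites on a log axis, with 1 point per replicate (circles YPD, squares YPGly), the mean and SD of the called replicates in black, and open symbols on the lowest line for replicates without a call. The 3 YPGly replicates of MLS1 lie between 60.9 and 75.0 and its 4 YPD replicates between 2.10 and 2.81, and ICL1 distal is the site where the YPGly values are not the higher ones.

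In all, 60 of the 203 sites (29.6%) were higher and 108 (53.2%) were lower in YPGly, and 5 of 5 sites of the genes examined were higher, with a median difference of 0.97 beside -0.30 over the 203. The FBP1 value among the 5 compares peaks of the media at separate positions, as described below. The centring moved every difference down by 0.70, because the lists from YPGly had higher enrichments at the shared sites, and without it 105 sites were higher and 18 lower, with the same 5 higher. In the enrichments as deposited, all 3 YPGly replicates lay above all 4 YPD replicates at these 5 sites and at 51.7% of the 203. The count itself is therefore to be read against that share, and the sizes of the differences stand in the sentences on each gene. When enrichment was replaced by the rank among the 203 sites and compared by an exact permutation test over the 35 splits of the lists, the smallest p possible was 0.0286, and no site of the series passed adjustment (111 had an unadjusted p under 0.05). There MLS1 moved from a mean rank of 106 to one of 12.0 (adjusted p = 0.052, exact permutation).

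Cytosolic malate dehydrogenase, MDH2 (YOL126C, chromosome XV, minus strand, 81787 to 82920), followed. Its intergenic site (chrXV:83203-83463) lay 413 bp upstream of the MDH2 ATG and 501 bp upstream of the divergent tRNA methyltransferase gene TRM13. The YPD replicates gave 2.87, 2.35, 2.48 and 2.96 and the YPGly replicates 18.8, 14.3 and 17.9, so the lowest YPGly value was well above the highest YPD value. The ratio of the means was 6.37 and the log2 difference 1.97 (SE 0.09, 95% interval 1.78 to 2.16, adjusted p = 1.01e-13), at place 9 of the 203 sites. Among the 203 sites the mean rank of MDH2 was 88.0 in YPD and 30.3 in YPGly (adjusted p = 0.052, exact permutation).

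The isocitrate dehydrogenase gene IDP2 and the 2-methylisocitrate lyase gene ICL2 had differences of the same size. IDP2 (YLR174W, chromosome XII, plus strand, 504591 to 505829) had its site (chrXII:504161-504421) 300 bp upstream of the ATG, with 3.97, 3.68, 3.62 and 4.66 in YPD and 16.3, 10.8 and 11.5 in YPGly. The center also lay 1843 bp upstream of CBF5, the pseudouridine synthase of box H/ACA snoRNPs. ICL2 (YPR006C, chromosome XVI, minus strand, 567269 to 568996) had its site (chrXVI:569132-569392) 266 bp upstream, with 3.67, 3.08, 3.18 and 3.82 in YPD and 13.8, 8.54 and 10.9 in YPGly. At both genes the media did not overlap, and replicate 1 was the highest of the YPGly values. The log2 difference was 0.97 at IDP2 (SE 0.09, 95% interval 0.78 to 1.17, adjusted p = 9.96e-09) and 0.97 at ICL2 (SE 0.09, 95% interval 0.78 to 1.15, adjusted p = 6.26e-09), at places 21 and 22 of the 203. These were also the strongest sites of the 10 genes in YPD, at places 66 and 76 of the 537 sites called there, against 121 for MDH2 and 141 for MLS1. The order of the genes differed by medium: IDP2 and ICL2 were above MLS1 in each YPD replicate and below it in each YPGly replicate.

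**Figure D2:**
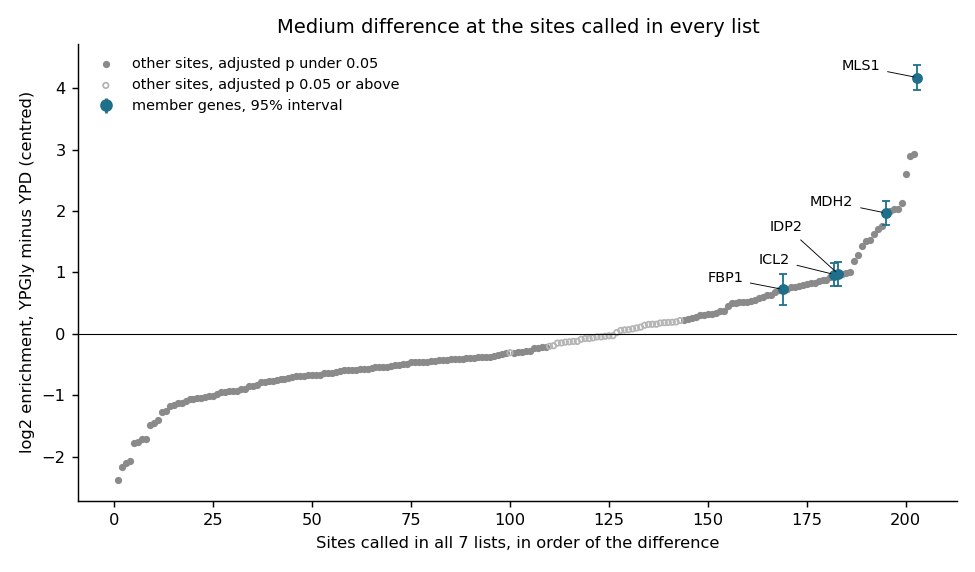
Difference of log2 enrichment between YPGly and YPD at the 203 sites called in all 7 lists, in increasing order, each list centred on its median over these sites. Grey points are other sites (open where the adjusted p is 0.05 or above) and the blue points with 95% intervals are the sites of MLS1 (4.17), MDH2 (1.97), IDP2 (0.97), ICL2 (0.97) and FBP1 (0.72).

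SFC1, PCK1 and JEN1 were called by the rule in YPGly alone. The lists give no value where a replicate has no call, and the lowest enrichment in a YPD list was 0.99 to 1.03, so a missing call sets no fold change and shows only that no peak was detectable under the authors' calling. SFC1, the succinate-fumarate carrier gene (YJR095W, chromosome X, plus strand, 609773 to 610741), had no YPD call and 6.29, 5.63 and 5.56 in YPGly, at an intergenic site 627 bp upstream (chrX:609016-609276). PCK1 (YKR097W, chromosome XI, plus strand, 631152 to 632801) had a call of 1.33 in YPD replicate 2 alone and 9.61, 8.93 and 9.52 in YPGly, 531 bp upstream (chrXI:630490-630751). All 3 YPGly values of PCK1 were within a narrow range, 9.36 ± 0.37 (SD, n = 3), and its 1 YPD call was at place 551 of the 771 peaks in the longest list of the series.

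JEN1, the lactate and pyruvate permease gene (YKL217W, chromosome XI, plus strand, 22234 to 24084), had 2 sites. The proximal site (chrXI:21496-21756), 608 bp upstream, had 1.66 in YPD replicate 2 alone and 23.0, 17.2 and 22.8 in YPGly, which is above every member but MLS1 in each YPGly replicate and at place 28 of the 333 sites called there. The distal site (chrXI:20777-21223), centred 1234 bp upstream, had no YPD call and 2.91, 1.97 and 2.23 in YPGly. Its peak in YPGly replicate 3 lay 1327 bp from the ATG and those of the other replicates 1119 and 1116 bp from it, so the 3 values do not describe 1 position.

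ICL1, isocitrate lyase (YER065C, chromosome V, minus strand, 285241 to 286914), had a weaker peak than its partner in the pathway. The proximal site (chrV:287192-287452), 408 bp upstream, had no YPD call and 2.84, 2.46 and 2.51 in YPGly. Its mean of 2.60 ± 0.21 (SD, n = 3) was at place 169 of the 333 sites called in YPGly, whereas the MLS1 mean of 70.3 was at place 12. The 3 peak positions of ICL1 fell 406, 407 and 408 bp from the ATG, beside its 1 CSRE match, whose center was 13.5 bp away on average.

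Of the 11 sites, 5 were called in all 3 YPGly replicates and in fewer than 3 YPD replicates (ICL1 proximal, SFC1, PCK1 and both JEN1 sites), beside 16.7% of the kept sites, and 3 of them had no YPD call at all, beside 9.15%. When calls were compared by Fisher's exact test (two-sided), the 3 sites without a YPD call had p = 0.0286 (adjusted p = 0.15 over the 1066 sites) and PCK1 and the proximal JEN1 site had p = 0.14 (adjusted p = 0.40). With 4 lists against 3 the smallest p is 0.0286, so no site of the series passed adjustment, and 201 had an unadjusted p under 0.05.

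The FBP1 and distal ICL1 sites touched tRNA genes, of which the sequences follow because the YPD peaks of both lay inside them. FBP1 (YLR377C, chromosome XII, minus strand, 873746 to 874792) is preceded by a tRNA-Lys gene (YNCL0047W), and ICL1 by the tRNA-Ser gene SUP19 (YNCE0015C). Both are printed whole, on their own strand.
tRNA-Lys gene upstream of FBP1, chrXII:875376-875471, plus strand: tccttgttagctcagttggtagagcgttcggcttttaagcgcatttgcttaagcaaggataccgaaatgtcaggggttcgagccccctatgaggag
tRNA-Ser gene upstream of ICL1, chrV:288443-288524, minus strand: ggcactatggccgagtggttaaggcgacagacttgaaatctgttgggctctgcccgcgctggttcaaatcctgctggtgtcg

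At FBP1, the 4 YPD peaks lay 584 to 615 bp upstream of the ATG, all inside the tRNA-Lys gene, with enrichments of 2.30, 1.67, 2.28 and 2.10. The 3 YPGly peaks lay 475 to 480 bp upstream, outside the tRNA gene, with 5.53, 5.35 and 5.78. The intervals overlapped and were joined into 1 site (chrXII:875142-875517), centred 538 bp upstream of FBP1 and 1776 bp upstream of PSY3, so the log2 difference of 0.72 (SE 0.12, 95% interval 0.48 to 0.97, adjusted p = 1.28e-05) compares peaks at separate positions. When a reciprocal overlap of 50% was required, a setting added after these positions were seen, the site split into a YPD and a YPGly site and no difference could be computed. The nearest CCN6CCG match was 22.0 bp from the YPGly peaks on average and 102 bp from the YPD peaks.

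The distal ICL1 site (chrV:288341-288610), centred 1562 bp upstream of ICL1 and 1766 bp upstream of RRT13, was the one site of these genes that leaned to YPD. Its enrichments were 2.13, 1.37, 1.75 and 1.82 in YPD and 1.42 and 1.38 in YPGly, with no call in YPGly replicate 3. The groups overlapped, since the lowest YPD value was below both YPGly values. All 6 peaks fell inside the tRNA-Ser gene, and the site was called by the rule in YPD only, as were 48.4% of the kept sites. Across the series a peak position lay inside a tRNA gene at 190 of the 645 kept sites, of which 169 were called by the rule in YPD only, 20 in both media and 1 in YPGly only, and the part of tRNA genes in these calls was not tested. Apart from peaks inside tRNA genes, the 10 genes therefore had YPD sites at 4 genes, MLS1, ICL2, MDH2 and IDP2. The share of all genes without such peaks was not computed, so this count has no background. Sites at all 4 genes were known when the genes were chosen.

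**Figure D3:**
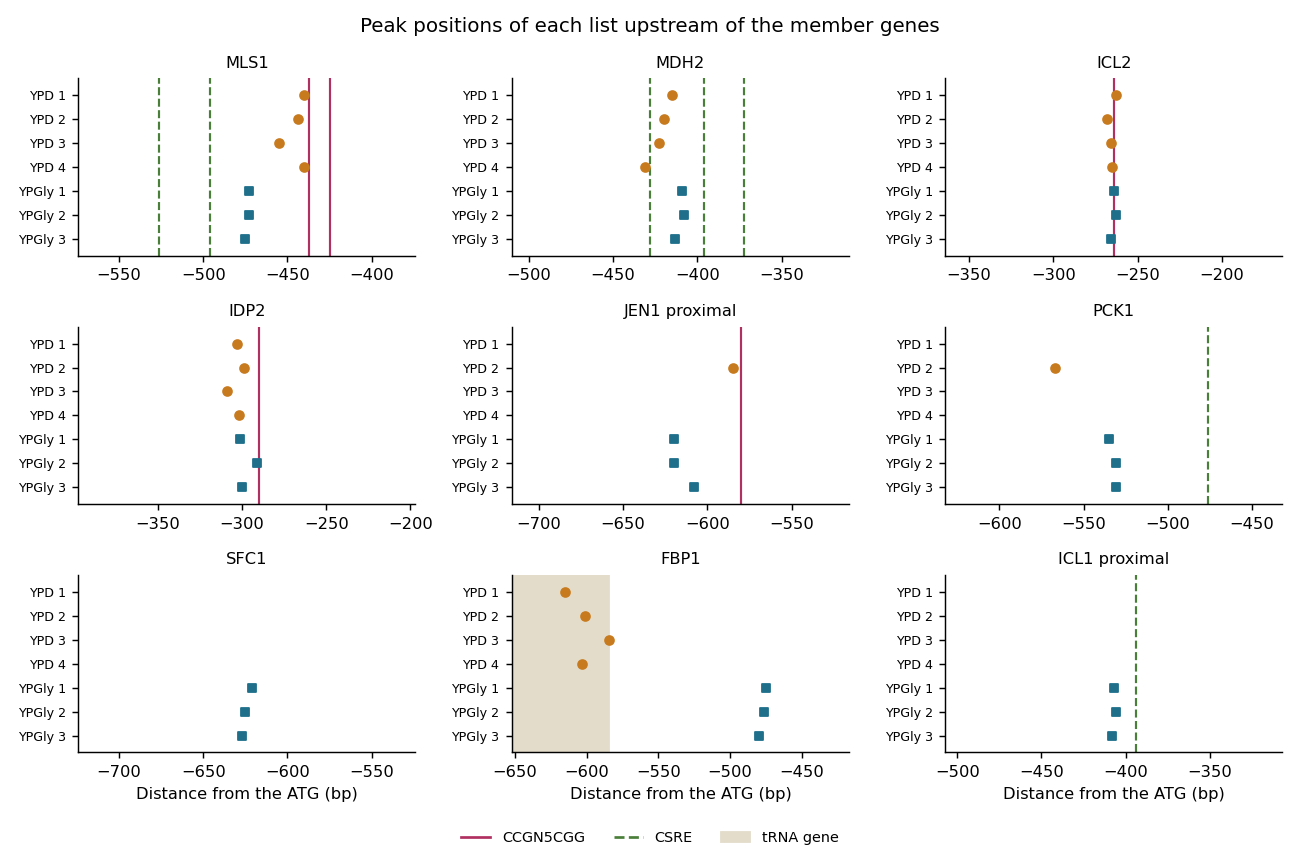
Peak position in each list, as distance from the ATG in bp with upstream negative, at 9 sites (circles YPD, squares YPGly), with CCGN5CGG matches as solid lines, CSRE matches as dashed lines and the tRNA gene upstream of FBP1 shaded. The ICL2 peaks of all lists fall within 263 to 268 bp of the ATG around the match, and the MLS1 peaks of the media fall apart, the YPD peaks beside the CCGN5CGG matches.

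Peak positions also differed between the media at MLS1. In YPD the peaks lay 440, 444, 455 and 440 bp upstream of the MLS1 ATG, and in YPGly 473, 473 and 475 bp upstream, so the groups did not overlap and their means were 28.9 bp apart. The nearer of the CCGN5CGG matches was 7.75 bp from the YPD peaks on average and 36.7 bp from the YPGly peaks, while the nearer CSRE match was 50.8 bp from the YPD and 21.8 bp from the YPGly peaks. At MDH2 the means were 12.2 bp apart, with the YPD peaks 415 to 431 and the YPGly peaks 408 to 413 bp upstream. The CSRE match farthest from the ATG was 7.0 bp from the YPD peaks on average and 17.5 bp from the YPGly peaks, and the next one 26.8 bp and 14.5 bp.

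ICL2 and IDP2 did not show this. The ICL2 means were 1.17 bp apart and the peaks of both media lay on the CCGN5CGG match, 2.00 bp from its center on average in YPD and 1.00 bp in YPGly. The IDP2 means were 5.92 bp apart and the positions of the media overlapped. Where YPD had a single call, at the proximal JEN1 site, that peak lay 585 bp upstream of the ATG and 5.00 bp from the CCGN5CGG center, and the YPGly peaks lay 608, 620 and 620 bp upstream, 36.0 bp from it on average. The single YPD call of PCK1 lay 567 bp upstream, and its YPGly peaks 531, 531 and 535 bp upstream.

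Displacement was compared at the 190 sites with 1 peak in each of the 7 lists by an exact permutation test on the mean positions, chosen after the positions were seen. The median displacement was 7.50 bp, and positions of the media did not overlap at 27.4% of the sites. FBP1 had the largest displacement of the 190, 124 bp, and MLS1 was at place 22 (both p = 0.0286, adjusted p = 0.18, exact permutation). MDH2 (p = 0.057), IDP2 (p = 0.17) and ICL2 (p = 0.60, all exact permutation tests) did not reach an unadjusted p of 0.05. No site passed adjustment, and 30 had an unadjusted p under 0.05.

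**Figure D4:**
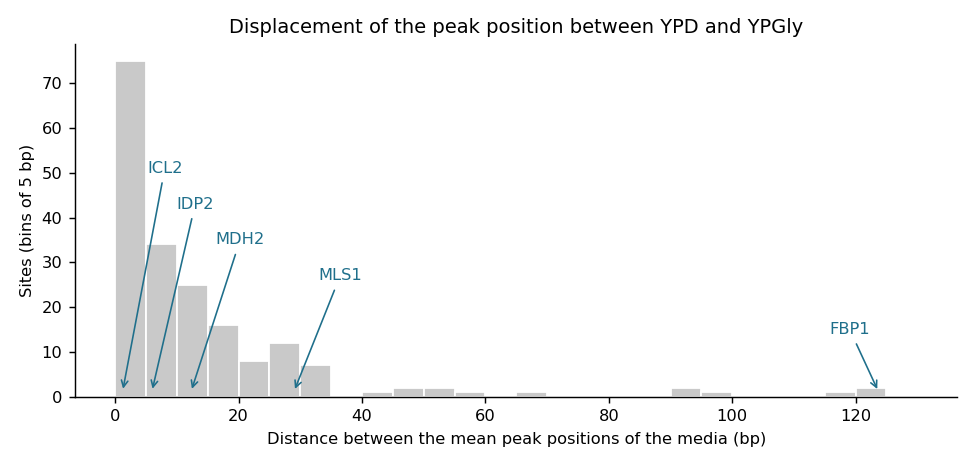
Number of sites, in bins of 5 bp, by the distance between the mean peak positions of YPD and YPGly, for the 190 sites with 1 peak in each list. Arrows mark ICL2 (1.17 bp), IDP2 (5.92 bp), MDH2 (12.2 bp), MLS1 (28.9 bp) and FBP1 (124 bp).

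ACS1, acetyl-CoA synthetase (YAL054C, chromosome I, minus strand, 42881 to 45022), was the gene without a peak. The nearest site of any kind was centred 23424 bp from its ATG, upstream of CLN3, a G1 cyclin gene, and was called in 2 YPD and 2 YPGly replicates. The 500 bp upstream of ACS1 held 3 CCN6CCG matches and no exact match to CSRE or CCGN5CGG. In the same window CSRE occurred at 3 of the 10 genes (ICL1, MDH2 and PCK1) beside 0.433% of genes with 500 bp upstream, and CCGN5CGG at 3 of the 10 (MLS1, ICL2 and IDP2) beside 2.13%. The CSRE matches of MLS1 and the CCGN5CGG match of JEN1 lay beyond 500 bp or at its edge, and JEN1 had none of the 3 patterns within that window.

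The 5 lists of genes of neighbouring steps were chosen from knowledge of the pathways, with earlier results of these data known. They held 40 genes in all. Of these, 16 (40.0%) had a kept site, beside 14.6% of all genes, 12 had one in YPD, beside 12.3%, and 14 in YPGly, beside 8.41%. Of their 22 sites, 11 were called in all lists, of which 5 were higher and 5 lower in YPGly by limma after centring, beside 29.6% and 53.2% of the 203 sites. Without centring 6 were higher and 1 lower. Among the 8 genes of the TCA and glyoxylate steps outside the members, CIT1, the mitochondrial citrate synthase gene, had 3 sites. The one 418 bp upstream was higher in YPGly by 2.04 (SE 0.10, adjusted p = 3.79e-13, limma). Those 842 and 1582 bp upstream each had a peak inside a tRNA gene, a missing call and therefore no limma value. Their means were 2.25 and 1.67 in YPD and 4.88 and 1.94 in YPGly. ACO1, aconitase, was lower, at -1.13 (SE 0.12, adjusted p = 5.94e-08) after centring and at -0.43 (adjusted p = 0.022) without it, and had the highest enrichments of the list, 239 ± 56.5 (SD, n = 4) in YPD and 173 ± 7.24 (SD, n = 3) in YPGly. CIT2, the peroxisomal citrate synthase gene of the glyoxylate cycle, had 2 weak sites that were lower after centring, at -0.59 and -0.86, the second of them with a peak inside a tRNA gene, and neither passed the test without centring, where the first was 0.11. DAL7, another malate synthase gene, and MDH3, the peroxisomal malate dehydrogenase gene, had no kept site.

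Among the 12 genes of substrate entry, ALD6 rose from 2.77 ± 0.33 (SD, n = 4) to 33.3 ± 2.99 (SD, n = 3), a log2 difference of 2.89 (SE 0.10, adjusted p = 4.12e-16), and DLD1, mitochondrial D-lactate dehydrogenase, by 0.97 (SE 0.10, adjusted p = 3.48e-08). PYC1, pyruvate carboxylase, which makes oxaloacetate for gluconeogenesis, had 2 sites. The one 1228 bp upstream had no YPD call and a mean of 3.56 ± 0.39 (SD, n = 3) in YPGly, and the one 412 bp upstream had 2 YPD calls, of 1.41 and 1.47, and a mean of 3.97 ± 0.51 (SD, n = 3) in YPGly. STL1, the glycerol importer gene, had a site 552 bp upstream with 2 YPD calls, of 1.83 and 2.37, and with 23.8, 18.3 and 22.1 in YPGly. CYB2, L-lactate dehydrogenase, had a site 1576 bp upstream with 3 YPD calls and no YPGly call, where a peak lay inside a tRNA gene. The glycerol kinase and glycerol-3-phosphate dehydrogenase genes GUT1 and GUT2, and those for the acetate transporter ADY2 and for alcohol dehydrogenase ADH2 had no kept site. Of the 5 mitochondrial carrier and acyl transfer genes, ODC1, an oxodicarboxylate carrier, and YAT1, a carnitine acetyltransferase, were called in all 3 YPGly replicates and no YPD replicate, with means of 1.57 ± 0.02 and 3.70 ± 0.56 (SD, n = 3).

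Of the 8 regulators, ADR1, the activator of genes for non-fermentable carbon, was higher in YPGly by 1.71 (SE 0.11, adjusted p = 2.43e-11), with 18.6 ± 4.09 (SD, n = 4) in YPD and 98.6 ± 17.6 (SD, n = 3) in YPGly. HAP4 had 2 sites. The one 943 bp upstream had means of 128 in YPD and 243 in YPGly, a log2 difference of 0.23 (SE 0.10, adjusted p = 0.034, limma). The one 1708 bp upstream was lower, at -0.42 (SE 0.09, adjusted p = 0.00033, limma) after centring, and did not pass the test without it (0.28). RDS2, a zinc cluster regulator of gluconeogenesis, had a site 1664 bp upstream that was called in all 4 YPD replicates and no YPGly replicate. CAT8 and SIP4, whose products bind the CSRE, had no kept site. Of the 7 GID genes, which target Fbp1 for breakdown when glucose returns, GID7 was lower in YPGly, at -0.90 (SE 0.10, adjusted p = 3.77e-08) after centring and did not pass the test without it (-0.19), and its second site, 406 bp upstream, had 3 YPD calls and no YPGly call.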

How the data were processed

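ChIP and input libraries had been made from 4 YPD and 3 YPGly biological replicates, 14 samples in all, and the authors had called peaks replicate by replicate, with no pooling of replicates. The samples that carry the lists are titled as input, except those of YPGly replicates 2 and 3, which are titled as ChIP. Medium and replicate number are the same under either reading. Per the labels and the paper's methods, 75-bp reads were trimmed with Trimmomatic 0.36 and mapped with Bowtie2 2.3.3 to build R64, and YPGly replicate 3 was sequenced in pairs and separately. The peak caller is not given in the sources used here. The deposited lists held 373 to 771 peaks each, as positions and as intervals, with a score, a false discovery rate (FDR, a q-value, whose −log10 stands in the interval files) and a ratio of ChIP over input, as a maximum-likelihood estimate and a lower bound, all made by the authors. The paper states a nominal sequencing depth, but the read numbers of single libraries are not in the lists. The depth of each list and the counting error are therefore unknown, and errors are SDs between replicates.

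Intervals overlapping by at least 1 bp were merged, giving 1066 sites, and a site counted for a medium with calls in at least 3 of its lists (645 sites). Genes and tRNA genes came from the RefSeq R64 annotation. The log2 ratio was centred per list on its median over the 203 sites called in all 7 lists. It was compared by limma 3.58.1 (R 4.3.3), adjusted by Benjamini-Hochberg at 0.05. Calls were compared by Fisher's exact test (SciPy 1.17.1), and positions and ranks by exact permutation over the 35 splits of the lists. The fit was tested on simulated data. Motifs were exact matches in 250 bp around a site's center. Alternatives covered the lower bound, the score, centring, ranks, missing calls, overlap, calls, windows, a replicate block and leaving out each list.

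The genes named are the members, genes sharing their sites, related genes with an adjusted p under 0.05 (at most 8, by size) or called in every list of 1 medium and no list of the other, and the 5 sites with the largest differences toward YPGly; others were named after their values were seen. The members and lists were chosen with earlier results of these data known.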

Additional observations from a re-analysis of the deposited data

How the results depend on the processing

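The 5 sites compared by limma stayed higher in YPGly with the lower bound, the score, no centring and the replicate block, and 5 were higher without any 1 list. Without YPGly replicate 3, 6 sites of these genes were compared and 5 were higher. Leaving out a list also changed the centring and the number of sites compared over the series, which was 202 to 219. Leaving out each replicate in turn gave log2 differences of 4.20 to 4.30 at MLS1, 1.96 to 2.07 at MDH2, 0.96 to 1.19 at IDP2, 0.96 to 1.11 at ICL2 and 0.67 to 0.90 at FBP1, where the peaks of the media lay at separate positions. Each leave-out gave 6 genes with a site in YPD and 9 in YPGly. Same-numbered replicates of the media did not deviate together (correlations of -0.33, -0.28 and -0.0040), and with the replicate block the differences were 4.21, 1.98, 1.01, 0.97 and 0.69 in the same order. By ranks none of the 5 passed (adjusted p 0.052, and 0.087 for FBP1), with rank differences of 93.8 at MLS1, 57.7 at MDH2, 14.2 at IDP2, 18.8 at ICL2 and 51.8 at FBP1, and 0 sites counted, where the smallest p over 35 splits is 0.0286. With missing calls set to the lowest enrichment of a list, 10 of the 11 sites were higher and ICL1 distal was lower (-1.15). ICL1 proximal, SFC1, PCK1 and both JEN1 sites entered this setting through their YPGly calls alone, so the filled values largely set their direction in advance. ICL1 distal entered through its YPD calls, with YPGly replicate 3 filled. Over the series 115 of 521 sites were higher and 298 lower, against 60 and 108 of 203 without filling. At the 203 sites without centring the counts were 105 and 18. The sites in YPD fell from 6 to 5 genes with an enrichment of at least 2 or with 1000 or 500 bp upstream, and those in YPGly from 9 to 6 with 500 bp. The share of all genes was computed for the main setting only, so these falls cannot be set against all genes. With 1 mismatch allowed, CCGN5CGG occurred at 7 of the 11 sites, and at 50.4% of the kept sites. The depth of each list is unknown, so a missing call is not an absence of binding.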

Other observations

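The CSRE consensus occurred at 7 of the 645 kept sites, and all 7 were called in the 3 YPGly replicates, beside 51.6% of the kept sites. Besides the sites of MLS1, MDH2, PCK1 and ICL1, these were a site upstream of FUM1, the fumarase gene, and KEL3 (6.95 in YPD and 44.4 in YPGly, log2 difference 2.00), a site upstream of YGR067C (14.1 and 174, log2 difference 2.92) and a site upstream of CDA2, a chitin deacetylase gene, and DPA10, with no YPD call and 4.73 in YPGly. These 3 sites were chosen after their values were seen, and values are means over the called replicates. The ICL1, PCK1 and CDA2 sites were kept through their YPGly calls alone, so the filter fixed their YPGly calls in advance. Of the 26 genes with a CSRE match in the 500 bp upstream, 12 had a kept site in their window, beside 14.6% of all genes, and 10 had one in YPGly, beside 8.41%. The genes are not separate cases, since divergent neighbours share sites, and those in YPGly were 9 sites.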
